A study of Mus musculus with 24 samples.

Results

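RAW264.7 is a mouse macrophage-like cell line, and here a line of it carrying a construct for Tbc1d23 was followed through the first hour after lipopolysaccharide (LPS), the cell wall component of Gram-negative bacteria. The arrays are the 6 of 24 in the study whose labels give the Tbc1d23 construct and 1 h or 0 h of LPS. They hold 3 arrays at 1 h (20 ng/ml LPS) and 3 at 0 h (unexposed). The corresponding 6 arrays of a line carrying chloramphenicol acetyltransferase (CAT), the study's control construct, gave the comparison, and the 3 h and 5 h arrays of both lines gave the later course. All cells grew in 400 ug/ml G418, the antibiotic that selects for a resistance gene. There was 1 line per construct, so the construct and anything else that differs between the lines cannot be told apart, and the sources used here do not say which part of the Tbc1d23 transcript the construct carries or which promoter drives it. The labels call the replicates biological and mention no separate cultures, so the p-values reflect only how far these samples scatter, which may be technical.

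LPS is presented by CD14 and MD-2 to Toll-like receptor 4 (TLR4). Its adaptor MyD88 leads to NF-kB and to the MAP kinases, and the adaptor TRIF leads to IRF3 and interferon beta. The earliest transcripts come from genes that need no newly made protein: transcription factors of the AP-1 and EGR families, cytokines and chemokines, and the inhibitors that end the signal, such as A20, the IkB proteins, MAP kinase phosphatases and the mRNA-decay protein tristetraprolin. Tbc1d23 carries a TBC domain, found in proteins that act on the Rab GTPases of vesicle transport.

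Levels are log2 of the array's processed signal minus that array's 75th percentile, so a level of 0 equals the signal that 75% of probes do not exceed. Replicates of the same number lay on the same slide, and each response is the 1 h level minus the 0 h level within slides, with the standard error of a limma fit (n = 3 pairs). A gene is called when its Benjamini-Hochberg adjusted p over the 15074 genes tested is under 0.05. On every slide the 0 h sample was at array position 1 and the 1 h sample at position 2, so array position and LPS time cannot be told apart. The share of probes well above background was 51.2%, 46.3% and 53.6% on the 1 h arrays and 69.6%, 42.1% and 57.5% on the 0 h arrays of replicates 1, 2 and 3. The 0 h array of replicate 1 therefore stood apart at the dim end: genes not well above background on all 6 arrays had a median response of -0.68 in pair 1, -0.08 in pair 2 and -0.36 in pair 3. Genes well above background on all 6 arrays (11630) had -0.05, -0.05 and -0.06.

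The Tbc1d23 transcript itself did not differ detectably between 1 h and 0 h. Its brightest probe (A_51_P223575, mm9 chromosome 16, 57169122 to 57169181) read 2.98, 3.08 and 3.55 at 1 h, against 3.05, 3.20 and 3.57 at 0 h. The response was -0.07 ± 0.11 (limma, adjusted p = 0.759). The level of the same probe did not differ detectably between the Tbc1d23 line and the CAT line either, with a difference of -0.18 ± 0.21 at 1 h (adjusted p = 0.538) and of 0.03 ± 0.21 at 0 h (adjusted p = 0.923). Probe A_52_P448220 gave 0.15 ± 0.18 at 1 h and 0.36 ± 0.18 at 0 h (limma, adjusted p = 0.519 and 0.1085). Probe A_52_P448398, well above background on 6 of 24 arrays, was not tested. It read -4.06, -4.03 and -4.89 at 1 h, against -6.26, -6.56 and -6.90 in the CAT line, and the lines overlapped at 0 h. Probe A_52_P639108 was not well above background on any array. A probe outside the part carried by the construct would check nothing. Macrophage markers were present: 25 of 25 tested were well above background on the 3 arrays at 0 h, none was called at 1 h, and their summed linear signal was 1695 to 2248 at 1 h and 1780 to 2174 at 0 h in the Tbc1d23 line, in units of the array's 75th percentile, against 2572 to 3019 and 2648 to 3043 in the CAT line, without overlap. Markers of T and NK cells (6 tested) summed to 13.6 to 19.8 at 1 h and 15.1 to 22.2 at 0 h in the Tbc1d23 line, against 1.34 to 1.89 and 1.19 to 1.66 in the CAT line, and most of that sum was Dntt and Cd5, while the defining marker Cd3e averaged -3.48 at 1 h and -2.59 at 0 h on the log2 scale. B cell markers (4) summed to 69.2 to 91.1 at 1 h and 73.8 to 98.7 at 0 h, nearly all of it Blnk, and Cd79b was called lower (-1.89 ± 0.45) but was not well above background at 1 h. Osteoclast markers (10) summed to at most 10.8 on any of the 6 arrays, against at least 17.8 on the CAT arrays, and Oscar was called lower (-0.56 ± 0.10). The part of these markers in the responses was not tested. Dendritic cell (6), granulocyte and erythroid (9) and fibroblast and epithelial (4) markers summed to at most 1.95 on any of the 6 arrays. Of these Flt3 (-0.81 ± 0.21), Gata1 (-0.76 ± 0.17), Hbb-bt (-1.26 ± 0.33) and Klf1 (-1.31 ± 0.33) were called lower and Csf3r higher (0.80 ± 0.22), none of them well above background on all 6 arrays. Without Tbc1d23 replicate 1 none of the 7 marker calls held (Oscar -0.57, Cd79b -1.72, Flt3 -0.67, Gata1 -0.43, Hbb-bt -1.21, Klf1 -0.95 and Csf3r 1.01). Without Tbc1d23 replicate 2 the calls of Oscar, Cd79b, Flt3 and Csf3r were lost (-0.51, -1.89, -0.84 and 0.33), and without replicate 3 those of all but Oscar (Cd79b -2.07, Flt3 -0.92, Gata1 -0.81, Hbb-bt -0.72, Klf1 -1.26 and Csf3r 1.08). Leaving out CAT replicate 2 ended those of Flt3, Gata1, Hbb-bt, Klf1 and Csf3r. In RNA of whole cultures, fewer cells of a kind and less RNA per cell cannot be told apart.

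An hour of LPS still raised a set of early inflammatory genes strongly in the Tbc1d23 line. Of all genes, 216 (1.43%) were called higher and 463 (3.07%) lower, and 90 (0.597%) were called and at least 2-fold higher. The higher calls were mostly of well-measured genes, 182 of them well above background on all 6 arrays, and had the same sign in all 3 pairs. Of the lower calls 212 were well above background on all 6 arrays and 251 were not. They lay lower in the range, as the plot of response against starting level shows: their median level at 0 h was -2.36, against 0.15 for the higher calls and 0.32 for all genes. Of the genes not well above background on all 6 arrays 7.29% were called lower, and of the others 1.82%. Genes dim at 1 h may have entered through their 0 h arrays alone, and the part of this selection in these shares was not tested. The split depended on the scaling, with 451 higher and 271 lower calls after quantile normalization and 7546 and 220 after scaling to the array median. Without replicate 1 of the Tbc1d23 line 150 genes were called higher and 133 lower, without replicate 3 the counts were 146 and 258, and without CAT replicate 2, which enters the shared spread, 174 and 261. Of the 90 genes at least 2-fold higher, between 84 and 89 kept the call when any of the 6 slides was left out.

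**Figure D1:**
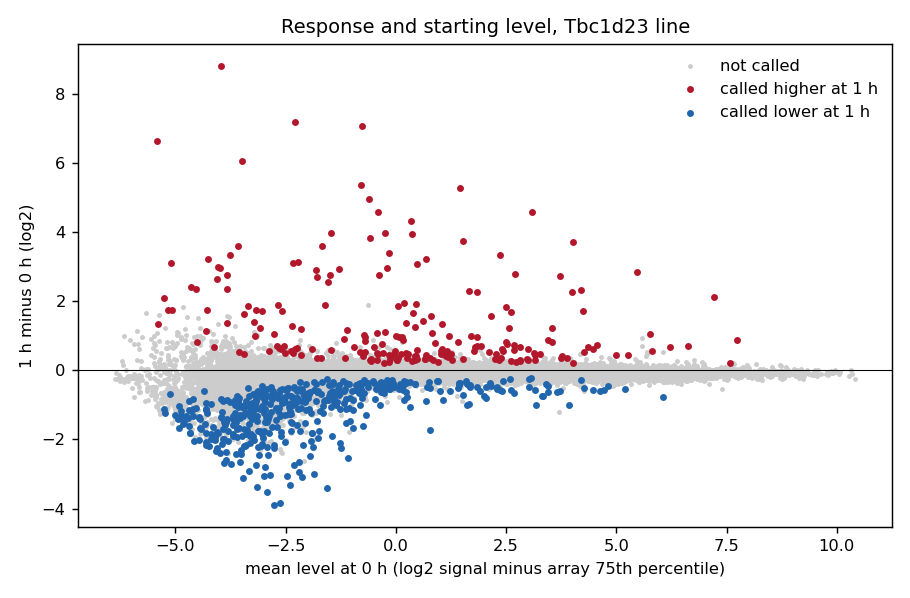
Response of each of the 15074 genes in the Tbc1d23 line (1 h minus 0 h, log2, vertical) against its mean level at 0 h (log2 signal minus the array's 75th percentile, horizontal), with genes called higher at 1 h in red, genes called lower in blue and the others in grey. The 463 lower calls crowd at low starting levels (median -2.36), while the 216 higher calls spread over the range (median 0.15).

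The 15 largest responses among well-measured genes ran from 10.1-fold to 146-fold, each with an adjusted p of 2.73e-10 or less by limma. In order they were Tnfaip3, Egr1, Nfkbiz, Tnf, Egr2, Zfp36, Nr4a1, Cxcl10, Phlda1, Fos, Gpr84, Cd83, Dusp2, Errfi1 and Ier2. They hold signal inhibitors, zinc finger and AP-1 transcription factors, a nuclear receptor, a cytokine and a chemokine. For each, every 1 h array was above every 0 h array, a separation that 3.35% of all genes showed in this direction. The 15 were picked by their response on these same arrays, so the separation adds no evidence.

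**Figure D2:**
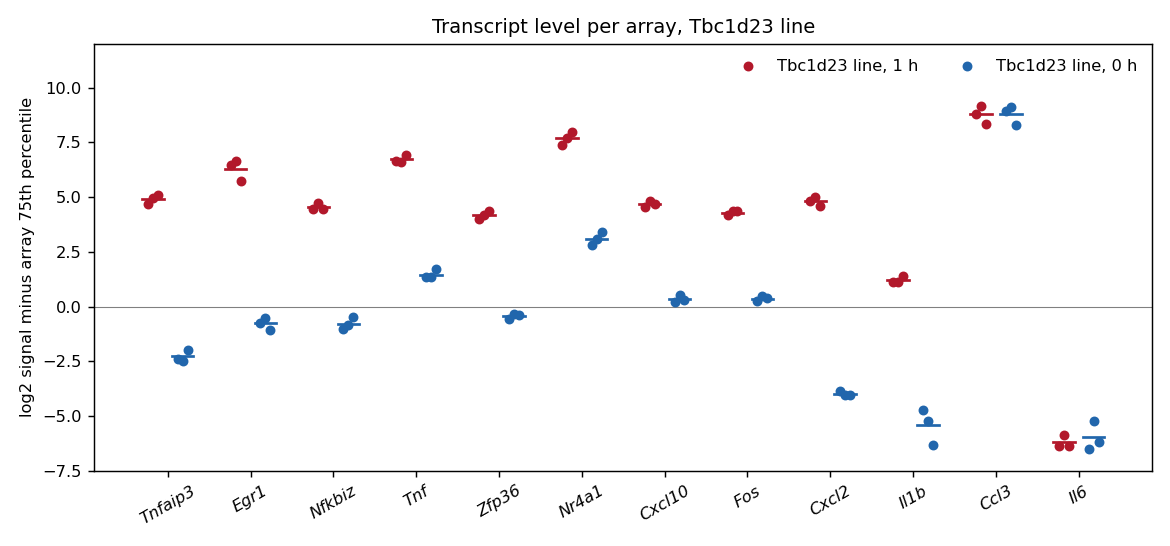
Level of 12 transcripts on each array of the Tbc1d23 line (log2 signal minus the array's 75th percentile), with the 3 arrays at 1 h in red on the left and the 3 at 0 h in blue on the right of each gene, and bars at the means. For Tnfaip3 to Il1b the 1 h points lie above the 0 h points, Ccl3 sits at 8.31 to 9.17 at both times, and the Il6 probe was not well above background on any of these arrays.

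Immediate early transcription factors formed the list with the highest share of calls: of 26 tested, 18 were called higher and 1 lower, with a median response of 1.35, against -0.09 over all genes. In the CAT line 21 were called higher (6.85% of all genes were, and 9.06% were called lower) and the median was 3.17. Egr1, a zinc finger factor switched on within minutes by MAP kinase signals, read 6.46, 6.66 and 5.72 at 1 h, against -0.73, -0.52 and -1.07 at 0 h. The groups were far apart, and the response was 7.05 ± 0.11. Fos, a subunit of AP-1, read 4.18, 4.35 and 4.35 at 1 h, against 0.25, 0.47 and 0.37 at 0 h. The 3 pairs agreed closely, with a response of 3.93 ± 0.14. Ier2, another early nuclear factor, rose by 3.34 ± 0.07, although a second probe of it gave 0.62. Nr4a1, an orphan nuclear receptor, read 7.39, 7.70 and 7.97 at 1 h, against 2.80, 3.07 and 3.43 at 0 h.

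Further members were also called higher. Egr2 rose by 4.95 ± 0.18, Nr4a2 by 2.93 ± 0.16, Atf3, which restrains inflammatory transcription, by 2.77 ± 0.08, and Junb by 2.13 ± 0.11. The AP-1 members Jun, Fosl1 and Fosl2 gained 1.00 ± 0.07, 1.08 ± 0.11 and 1.11 ± 0.09, and a second probe of Fosl2 gave -0.26. Maff, a basic leucine zipper factor, read 3.59, 4.33 and 4.45 at 1 h, against 1.65, 1.81 and 2.08 at 0 h. Klf10 was the member called lower, by -0.81 ± 0.09. Its arrays at 1 h (1.05, 1.25 and 1.37) were all below those at 0 h (1.86, 2.15 and 2.10), and all were well above background. Scaling to the array median, which moves the median response of all genes to 0.48, left Klf10 uncalled at -0.25.

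Inhibitors of NF-kB were among the strongest responders. Of 24 tested members of the NF-kB, IkB and A20 group, 15 were called higher and none lower, with a median of 0.62 (20 higher and a median of 1.67 in the CAT line). Tnfaip3 encodes A20, the ubiquitin-editing enzyme that switches NF-kB signalling off, and read 4.69, 4.95 and 5.10 at 1 h, against -2.38, -2.49 and -1.97 at 0 h. The 2 groups were far apart, with a response of 7.19 ± 0.10 (adjusted p = 3.41e-15). Nfkbiz encodes IkB-zeta, a nuclear cofactor for secondary NF-kB targets, and rose by 5.35 ± 0.21. Nfkbia encodes IkB-alpha, which holds NF-kB in the cytosol, and read 8.32, 8.51 and 8.10 at 1 h, against 5.50, 5.40 and 5.49 at 0 h. That is a response of 2.84 ± 0.09 on top of a high resting level. Nfkbid rose by 2.90 ± 0.14 and Traf1, a signalling adaptor, by 2.27 ± 0.10. Of the subunits themselves Relb rose by 1.26 ± 0.08 and Nfkb2 by 0.63 ± 0.12, while the probes of Nfkb1 disagreed: the brightest was not called (-0.23 ± 0.14, adjusted p = 0.394), 2 others were called higher (0.94 ± 0.19 and 1.14 ± 0.16) and a further one was at 0.27 and not called.

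Sequence before the start site was available for 10 of the 15 genes with the largest responses, and for Nfkbia and Cxcl2. The 250 bases upstream of each RefSeq start were searched on both strands for kappaB motifs (GGG, any 2 bases, TT, any base and CC, or GGG, any 3 bases and TTCC, which can overlap), AP-1 (TGANTCA), CRE (TGACGTCA) and the CArG box of serum response factor. Upstream stretches of 4 genes (GRCm38.p6), chosen because they hold kappaB matches and belong to both inhibitors and chemokines of the early response, are printed 5′ to 3′ on the gene's own strand, with matches in capitals. Of the 10, only Tnfaip3 and Cxcl10 hold a kappaB match in the window searched. Tnf, Egr2, Zfp36, Nr4a1, Fos, Gpr84, Dusp2 and Errfi1 hold none.
Tnfaip3 (chr10:19015411-19015530, minus strand, bases -120 to -1): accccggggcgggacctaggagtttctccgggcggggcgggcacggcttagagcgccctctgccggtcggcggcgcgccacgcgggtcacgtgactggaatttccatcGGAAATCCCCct
Nfkbia (chr12:55492648-55492767, minus strand, bases -120 to -1): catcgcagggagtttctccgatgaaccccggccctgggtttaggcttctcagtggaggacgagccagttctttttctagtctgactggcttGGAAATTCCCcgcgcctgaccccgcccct
Cxcl2 (chr5:90903779-90903898, plus strand, bases -120 to -1): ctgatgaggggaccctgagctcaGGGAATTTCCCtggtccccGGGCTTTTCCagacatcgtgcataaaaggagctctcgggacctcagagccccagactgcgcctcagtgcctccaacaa
Cxcl10 (chr5:92348929-92349048, minus strand, bases -159 to -40): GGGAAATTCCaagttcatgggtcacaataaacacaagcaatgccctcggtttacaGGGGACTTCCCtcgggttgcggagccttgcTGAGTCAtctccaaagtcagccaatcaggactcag
The longer capital run of Cxcl2 and of Cxcl10 is 2 overlapping kappaB matches, and the last capitals of Cxcl10 are an AP-1 match. A kappaB match was present in 11 of the 51 genes at least 2-fold higher in the Tbc1d23 line that had a promoter in the table (21.6%), in 11 of 143 genes at least 2-fold higher in the CAT line but not called higher in the Tbc1d23 line (7.69%), and in 7.67% of the promoters of all genes tested. AP-1 matches stood at 7.84%, 11.2% and 4.7%, CRE at 7.84%, 4.2% and 2.63%, and the CArG box, which Zfp36 holds, at 1.96%, 3.5% and 1.1%. These shares are descriptions of letters in a window, and a match is not a binding site.

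Regulators that shorten the signal or the life of cytokine mRNA rose beside the factors they restrain. Of 24 tested MAP kinase phosphatases and feedback genes, 11 were called higher and 1 lower (17 and 4 in the CAT line). The nuclear phosphatase Dusp2 read 7.79, 7.82 and 7.60 at 1 h, against 3.87, 4.09 and 4.13 at 0 h, a rise of 3.71 ± 0.09. Dusp1, which inactivates p38 and JNK, rose by 3.07 ± 0.09. Phlda1 (3.98 ± 0.13), Socs3, an inhibitor of cytokine receptor signalling (2.72 ± 0.10), Gadd45b (2.30 ± 0.12) and Trib1 (1.66 ± 0.09) were also called higher. Dusp6, the phosphatase of ERK, was the lower member at -0.77 ± 0.17. It was not called without Tbc1d23 replicate 1, 2 or 3 (-0.73, -0.77 and -0.81) or without CAT replicate 2.

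Among cytokine mRNA decay regulators 4 of 11 were called higher and none lower. Zfp36 encodes tristetraprolin, which destabilises Tnf mRNA, and read 4.01, 4.18 and 4.36 at 1 h, against -0.54, -0.32 and -0.37 at 0 h. Its response was 4.59 ± 0.09. The RNase Zc3h12a (regnase-1) and the antiproliferative Btg2 rose by 3.09 ± 0.17 and 3.21 ± 0.08.

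Many cytokine transcripts rose, and some stayed at background. Of 27 tested, 13 were called higher, 11 of them at least 2-fold, and none lower. Well above background on none of the 3 arrays were 9 at 0 h and 7 at 1 h. Tnf read 6.66, 6.59 and 6.92 at 1 h, against 1.34, 1.34 and 1.71 at 0 h, a response of 5.26 ± 0.09. Il1b read 1.12, 1.11 and 1.40 at 1 h and was not well above background at 0 h (-4.71, -5.24 and -6.31), so it was at least 40.4-fold higher (adjusted p = 1.62e-10). Ifnb1, the interferon that TRIF signalling induces, read -1.90, -2.24 and -1.84 at 1 h and was likewise dim at 0 h, and was at least 4.24-fold higher (adjusted p = 1.25e-06). Sele, an adhesion molecule, was at least 1.85-fold higher. The bound sets the 1 h mean against, on each array, the higher of the probe's own signal and the lowest signal well above background. Osm, a cytokine of the interleukin 6 family, rose by 2.70 ± 0.14, and the ligand of 4-1BB, Tnfsf9, by 1.84 ± 0.10. Il10, the main anti-inflammatory cytokine, rose by 1.40 ± 0.20, with 2 of 3 arrays at 0 h well above background. Csf2, which encodes GM-CSF, rose by 2.36 ± 0.33, with 1 of 3 arrays at 0 h well above background. Il6 was not well above background on any of the 6 arrays (-6.37, -5.88 and -6.39 at 1 h, against -6.52, -5.23 and -6.18 at 0 h), and Il1a on 1 of the 3 arrays at 1 h and none at 0 h.

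Chemokines gave 5 higher calls and 1 lower call of 19 tested, against 11 and 0 in the CAT line. Cxcl2, a neutrophil attractant, had the largest fitted response of all genes named here, reading 4.85, 5.03 and 4.61 at 1 h, against -3.85, -4.06 and -4.02 at 0 h. The difference of 8.80 ± 0.21 starts from a probe well above background on 2 of the 3 arrays at 0 h. Cxcl10, an attractant of T cells, rose by 4.33 ± 0.09, and the monocyte attractant Ccl2 by 1.23 ± 0.16. The macrophage inflammatory proteins began high. Ccl4 read 8.52, 8.81 and 8.53 at 1 h, against 7.68, 7.83 and 7.71 at 0 h, a rise of 0.88 ± 0.10. Ccl3 read 8.82, 9.17 and 8.35 at 1 h, against 8.93, 9.13 and 8.31 at 0 h, which overlap (-0.01 ± 0.10, adjusted p = 0.961). The lower call, Ccl24, was not well above background on any of the 6 arrays and was not called without Tbc1d23 replicate 1 (-1.69) or 2 (-1.55).

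Surface receptors and enzymes responded in part. Of 38 other pattern recognition, interleukin and costimulatory receptors, 8 were called higher and 2 lower (20 and 1 in the CAT line), and of 29 inflammatory enzymes and mediators 8 higher and 2 lower (21 and 0). Cd83, a surface protein of activated antigen-presenting cells, rose by 3.74 ± 0.08, the cyclic AMP phosphodiesterase Pde4b by 3.14 ± 0.13, the inflammasome sensor Nlrp3 by 1.72 ± 0.17, the lectin receptor Clec4e by 1.71 ± 0.09 and the adhesion molecule Icam1 by 1.06 ± 0.13. Acod1, the enzyme that makes itaconate, read 5.35, 5.43 and 5.66 at 1 h, against 2.57, 2.72 and 2.79 at 0 h (2.79 ± 0.12). Ptgs2, the inducible cyclooxygenase, read 2.64, 2.34 and 2.10 at 1 h, against 0.76, 0.92 and 0.69 at 0 h (1.57 ± 0.09). The lower calls in these lists, Cd86, Tlr3, Ch25h and Slc7a2, were not well above background on any array at 1 h. Tlr3 and Ch25h were not called without Tbc1d23 replicate 1 (-1.81 and -0.75), nor Ch25h without any 1 CAT replicate (-1.19).

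Most genes of LPS sensing themselves moved little. Of 28 tested components from Cd14 to the IKK and MAP kinases, 2 were called higher and none lower (6 and 4 in the CAT line), with a median of 0.01. Among all genes 1.43% were called higher and 3.07% lower, and 6.85% and 9.06% in the CAT line. The list's share of higher calls was thus above that of all genes in both lines. Map3k8, the kinase Tpl2 that links NF-kB p105 to ERK, rose by 1.76 ± 0.23 with 2 of 3 arrays at 0 h well above background. Cd14, already at 7.45 to 7.72 at 0 h, gained 0.20 ± 0.05 (adjusted p = 0.0364) and was not called without Tbc1d23 replicate 1, 2 or 3 (0.23, 0.22 and 0.16) or without CAT replicate 2 or 3. Tlr4 (-0.31 ± 0.14, adjusted p = 0.27) and Myd88 (0.06 ± 0.06, adjusted p = 0.589) were not called.

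Of 46 interferon-related genes 5 were called higher and 1 lower, with a median of 0.07 (11 higher, 6 lower and -0.05 in the CAT line). Over all genes 1.43% were called higher and 3.07% lower, and 6.85% and 9.06% in the CAT line. The share of higher calls was thus above that of all genes in both lines. Rsad2, which encodes viperin, rose by 0.99 ± 0.14 on its brightest probe, while 2 further probes were not called (0.46 ± 0.35 and -0.43 ± 0.38). The ubiquitin-like modifier Isg15 gained 0.51 ± 0.12 (0.13, 0.15 and -0.0032 at 1 h, against -0.41, -0.38 and -0.47 at 0 h), and was not called without Tbc1d23 replicate 1, 2 or 3 (0.50, 0.50 and 0.53) or CAT replicate 3. Ifit1 was not called at 0.25 ± 0.17 (adjusted p = 0.478), nor Oasl1 at 0.31 ± 0.09 (adjusted p = 0.0834). The lower call, Mx1, was not well above background on any array at 1 h, and its second probe was at 0.05.

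The 10 inflammatory lists held 89 of the 216 higher calls and 8 of the 463 lower calls, so most called genes lay outside them. The other lists examined gave few calls. Over all genes 1.43% were called higher and 3.07% lower, so few calls are usual in lists this small. Of 16 p53 targets, 30 cell cycle genes, 24 genes of oxidative phosphorylation and 13 housekeeping genes none was called by limma in the Tbc1d23 line, with medians of 0.01, -0.02, -0.03 and 0.05. In the CAT line these 4 lists gave 4, 0, 0 and 1 higher calls and 1, 5, 1 and 0 lower calls. Among 26 genes of the unfolded protein and integrated stress response the phosphatase subunit Ppp1r15a was the only call, higher by 1.95 ± 0.19. Of 23 heat shock and NRF2 genes Osgin1 was called lower (-0.59 ± 0.10), and of 26 genes of cholesterol synthesis and LXR Mylip, which targets the LDL receptor for degradation, was (-0.48 ± 0.09). Osgin1 lost its call without Tbc1d23 replicate 1 (-0.53) and Mylip without replicate 1, 2 or 3 (-0.52, -0.43 and -0.48). In the CAT line the stress response list gave 6 higher and 4 lower calls. The heat shock and NRF2 list gave 7 and 1 there, and the cholesterol and LXR list 9 and 6.

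Among well-measured genes the largest falls were smaller than the rises. The lowest 10 were Cd300ld3 (-1.74 ± 0.28), Gpr152, Ikzf1, Olfr124, Zfp773, Zfp273, Tac2, Zfp658, Wdr31 and Nhlrc1 (-1.03 ± 0.13). Their mean levels at 0 h lay between -2.41 and -0.74, below the median of all genes. Olfr124, Tac2, Wdr31 and Zfp773 were not called without Tbc1d23 replicate 1 (-0.69, -0.92, -0.95 and -0.96), Tac2 also without replicate 2 (-1.09) or any CAT replicate, Zfp773 also without replicate 3 (-1.16) or CAT replicate 2, and Olfr124 also without CAT replicate 2. Ikzf1, which encodes the lymphoid transcription factor Ikaros, read -2.59, -2.96 and -2.39 at 1 h, against -1.20, -1.11 and -1.06 at 0 h, and fell in the CAT line too (-1.70 ± 0.14). Zfp273 read -3.13, -3.20 and -2.96 at 1 h, against -2.05, -2.08 and -1.79 at 0 h (-1.13 ± 0.08), with a second probe at -0.71 that was not called.

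Nearly all genes called higher in the Tbc1d23 line were also called higher in the CAT line, and for most of them the response was smaller in the Tbc1d23 line. Of the 216 genes called higher in the Tbc1d23 line, 201 were also called higher in the CAT line (93.1% of the Tbc1d23 line's calls and 19.5% of the CAT line's), and none was called lower there. In the CAT line 362 genes (2.4%) were called and at least 2-fold higher, and 154 of them (42.5%) were called higher in the Tbc1d23 line, where their median response was 0.39, against 1.93 in the CAT line. For 211 genes chosen by the response averaged over both lines (at least 2-fold and called), which favours neither line, the median was 0.88 in the Tbc1d23 line and 2.79 in the CAT line. The difference between the lines, tested for each gene as the Tbc1d23 response minus the CAT response, was called below 0 for 170 of these genes, above 0 for 4 and not called for 37. The falls gave another picture. Of the 463 genes called lower in the Tbc1d23 line, 176 were called lower in the CAT line too (38% of the Tbc1d23 line's calls and 12.9% of the CAT line's), and 6 were called higher there. In the CAT line 6.85% of all genes were called higher and 9.06% lower. Both overlaps, 93.1% for the rises and 38% for the falls, were above those shares. For 173 genes at least 2-fold lower by the response averaged over both lines, the median was -1.38 in the Tbc1d23 line and -1.29 in the CAT line, and the difference was called below 0 for 20, above 0 for 40 and not called for 113. Over all genes 5.57% were called, 3.55% below 0 and 2.02% above (535 and 304 genes). After scaling to the array median the calls below and above 0 numbered 192 and 269, and without Tbc1d23 replicate 1 or CAT replicate 2 the calls in both directions numbered 493 and 491, against 839. Responses in the Tbc1d23 line grew with those in the CAT line: genes with a CAT response of 1 to 2 had a median of 0.22, and those with 6 or more had 3.22.

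**Figure D3:**
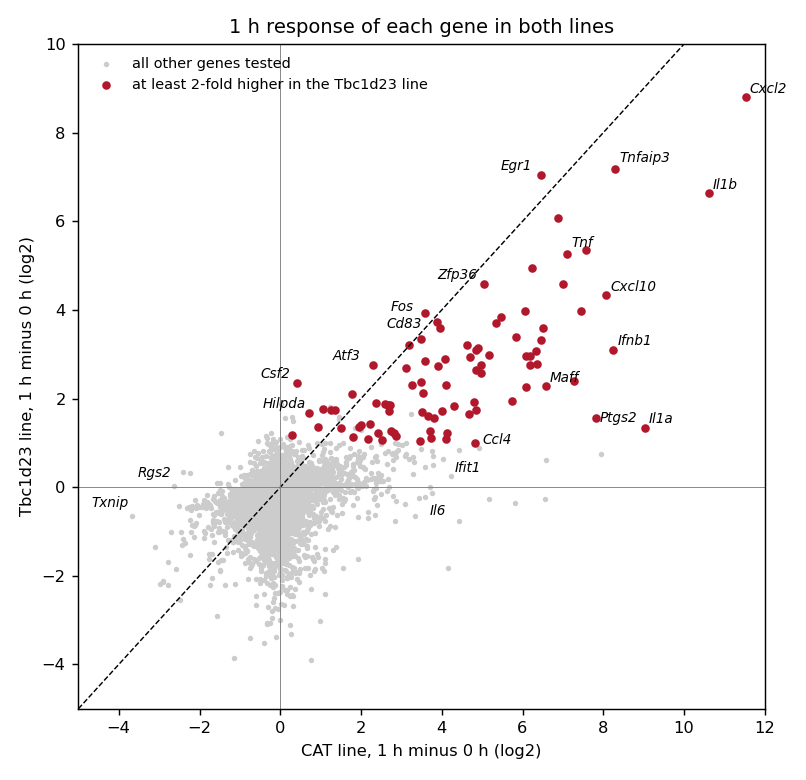
Response at 1 h of each gene in the Tbc1d23 line (vertical, log2) against its response in the CAT line (horizontal, log2), with the 90 genes called and at least 2-fold higher in the Tbc1d23 line in red and a dashed line at equality. Most red points lie below the line, Egr1, Atf3, Csf2 and Hilpda lie above it, and values of genes at background at 0 h, such as Ifnb1 and Il1a, are fitted values and not measured folds.

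**Figure D4:**
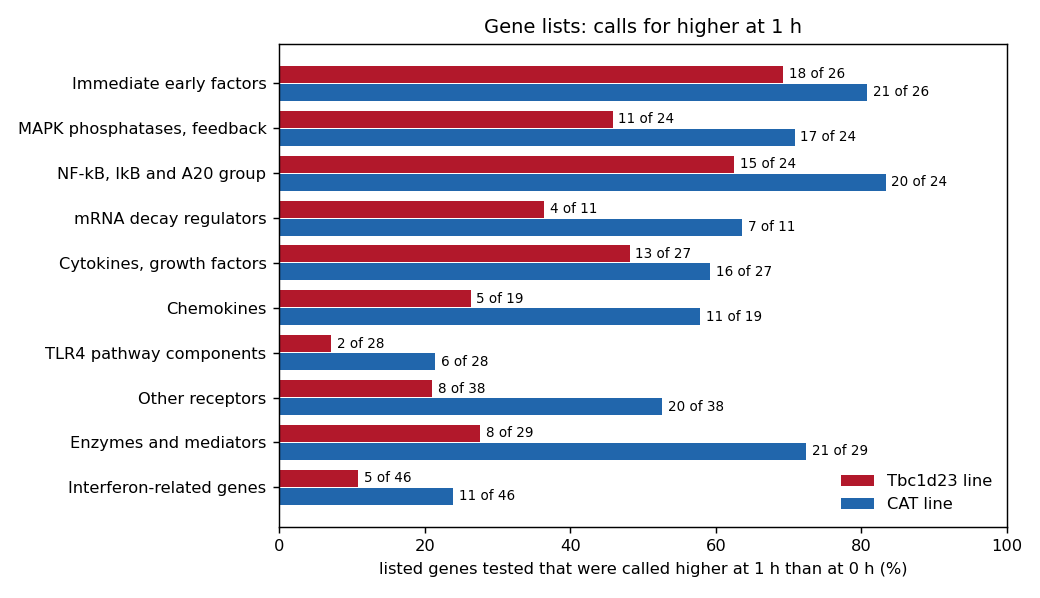
Share of the tested members of 10 gene lists called higher at 1 h than at 0 h, with the Tbc1d23 line in red above the CAT line in blue and counts beside the bars. Immediate early factors stand at 18 and 21 of 26, cytokines and growth factors at 13 and 16 of 27, and enzymes and mediators stand at 8 and 21 of 29.

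For a minority of genes the response was larger in the Tbc1d23 line or not called different. Of the 90 genes at least 2-fold higher in it, the difference was called below 0 for 66, above 0 for 5 and not called for 19. The lipid droplet protein Hilpda (difference 0.98 ± 0.11, adjusted p = 5.57e-05) and the interleukin 10 receptor chain Il10ra (0.89 ± 0.12, adjusted p = 0.000276) were above 0 and kept that call when any 1 slide was left out. Hilpda read 4.14, 4.34 and 4.36 at 1 h, against 2.44, 2.67 and 2.70 at 0 h in the Tbc1d23 line, and 2.48, 2.71 and 2.38 against 1.69, 1.91 and 1.85 in the CAT line. Il10ra rose from a lower level and stayed lower. Its means were -0.97 at 1 h and -2.16 at 0 h in the Tbc1d23 line, against 2.17 and 1.88 in the CAT line. The other 3 calls above 0 were each lost in several of the fits with 1 slide left out, although the estimates stayed above 0. Egr1, with 7.05 in the Tbc1d23 line and 6.45 in the CAT line, differed by 0.61 ± 0.16 (adjusted p = 0.0339) and was not called without Tbc1d23 replicate 1 (0.54) or 2 (0.54) or without CAT replicate 2 (0.48) or 3 (0.57). Atf3 (0.47 ± 0.11, adjusted p = 0.0202) was not called without Tbc1d23 replicate 1 (0.45) or 3 (0.48), without CAT replicate 1 (0.38) or 2 (0.51), or after quantile normalization (0.41). Its mean level at 1 h was still lower in the Tbc1d23 line, at 2.39, against 5.24 in the CAT line. Csf2 (1.94 ± 0.46, adjusted p = 0.0212) was not well above background on any CAT array at 1 h or 0 h, and was not called without Tbc1d23 replicate 2 (1.66) or without CAT replicate 1 (2.03), 2 (1.72) or 3 (2.06).

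Of 7 well-measured genes at least 2-fold higher whose difference was not called, the 95% interval bounds how far apart the lines could be. For Ier2 it ran from -0.35 to 0.05, for Cd83 from -0.36 to 0.09, for Fabp4, a fatty acid carrier, from -0.46 to 0.14, and for Fos from -0.06 to 0.77. For Zfp36 (-0.72 to -0.18), Osm (-0.83 to 0.02) and Cdc42ep4 (-1.02 to -0.15) the interval reached further below 0. These intervals are for single genes and are not adjusted for the number tested.

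Among genes well above background on all 12 arrays, the largest deficits relative to the CAT line were those of Maff, Ccl4, Ifit1, Traf1, Ppp1r15a, Cxcl10, Csrnp1 and Acod1, with differences between -4.31 ± 0.20 (Maff) and -3.57 ± 0.18 (Acod1). In the opposite direction stood Txnip, Rgs2, Zkscan14, Zfp30, Alkbh4, Zfp763, Zfp647 and Tmem140. All 8 fell in the CAT line. In the Tbc1d23 line Txnip, Alkbh4 and Zkscan14 were called lower, Zkscan14 not without Tbc1d23 replicate 1 (-0.41) or 3 (-0.34) or any 1 CAT replicate, and the other 5 were not called. Txnip, an inhibitor of thioredoxin, gave -0.65 ± 0.08 in the Tbc1d23 line and -3.67 ± 0.08 in the CAT line, with a second probe at -0.02 in the Tbc1d23 line, and Rgs2, a brake on G protein signalling, gave 0.03 ± 0.14 and -2.62 ± 0.14.

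A smaller response went with 2 patterns of level. Of the 144 genes called higher in the Tbc1d23 line with a difference called below 0, 86 had a level at 0 h called higher in the Tbc1d23 line than in the CAT line, and 97 had a level at 1 h called lower (limma fit without slides, which are nested in lines). Over all genes 25.2% were called higher at 0 h and 21.8% lower at 1 h. Higher at 0 h but not lower at 1 h were 45 genes, lower at 1 h but not higher at 0 h were 56, both were 41 and neither were 2. Response and levels come from the same arrays, so this divides the difference and adds no test of it. The fit of levels counts arrays of 1 slide as independent, although they correlated at 0.57 with a random slide effect. Its p-values may therefore be too small. Slide barcodes were consecutive for Tbc1d23 replicates 1 and 2, and separately for replicate 3 with the CAT slides. This grouping comes from barcode numbers and not from a named batch. In scan order Tbc1d23 replicates 1 and 2 were numbers 3 and 4, between slides of the other series.

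Tnf showed the first pattern. It stood at 6.73 at 1 h and 1.46 at 0 h in the Tbc1d23 line, against 6.64 and -0.46 in the CAT line, so the levels of Tnf differed by 0.08 ± 0.14 at 1 h, with an adjusted p of 0.665, and by 1.92 ± 0.14 at 0 h, with an adjusted p of 1.91e-09. Cxcl2 was at 4.83 and -3.98 in the Tbc1d23 line, against 5.04 and -6.49 in the CAT line, where it was not well above background at 0 h. Ptgs2 (2.36 and 0.79, against 1.95 and -5.85) and Ccl4 (8.62 and 7.74, against 7.48 and 2.57) were also near or above the CAT line's 1 h level. Ptgs2 was not well above background in the CAT line at 0 h, where it was at least 98.1-fold higher at 1 h, against 2.97-fold in the Tbc1d23 line.

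Other genes had a lower level at 1 h. Il1b stood at 1.21 at 1 h in the Tbc1d23 line, against 6.71 in the CAT line, and Egr2 at 4.32, against 8.60. Ifnb1 was at -2.00, against 2.01, and in the CAT line it was at least 102-fold higher at 1 h than at 0 h. Myc, which rose by 2.95 ± 0.16 on this probe, with further probes at 1.70 and -0.18, was at -1.03, against 3.36. Some genes of the CAT response had no measured counterpart: Areg, a ligand of the EGF receptor, and Il6 were not well above background at 1 h in the Tbc1d23 line and were at least 18.2-fold and 3.50-fold higher at 1 h in the CAT line. The signalling inhibitor Socs1 (0.01 ± 0.16, against 2.70 ± 0.16) and the stress gene Gadd45g (-0.39 ± 0.14, against 3.09 ± 0.14) were well above background at both times and were not called in the Tbc1d23 line.

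The early rise was short for some genes and lasted for others. Of the 90 genes at least 2-fold higher at 1 h, 47 had their highest mean of the 4 times at 1 h, 37 at 3 h and 6 at 5 h, and in the CAT line the same genes gave 40, 32 and 18. The genes were chosen at 1 h in the Tbc1d23 line, which favours that time there. Egr1 had means of -0.77, 6.28, 2.19 and -0.94 at 0, 1, 3 and 5 h, and Tnfaip3 had -2.28, 4.91, 0.98 and -0.81, against -1.17, 7.13, 6.05 and 4.79 in the CAT line. Zfp36 was at 0.57 at 5 h, against 3.83 in the CAT line, and Tnf at 3.59, against 6.06. Acod1 went on to 7.94 at 3 h and 7.71 at 5 h, and Cxcl10 to 6.10 at 3 h.

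**Figure D5:**
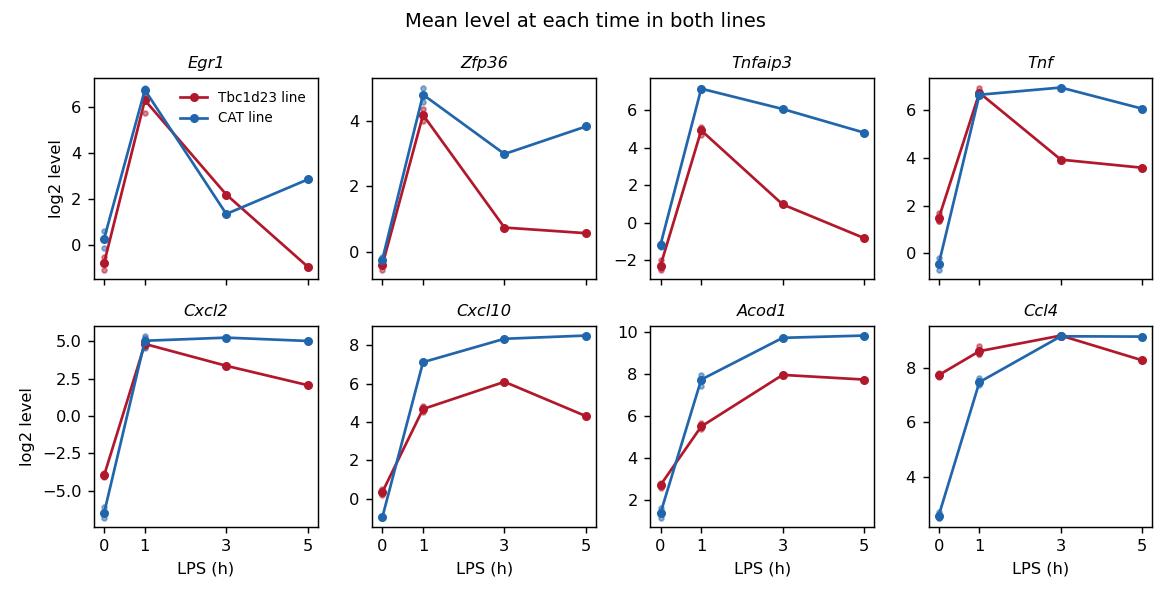
Mean level (log2 signal minus the array's 75th percentile) of 8 transcripts at 0, 1, 3 and 5 h of LPS in the Tbc1d23 line (red) and the CAT line (blue), with each line's single arrays at 0 h and 1 h as small points. Egr1, Zfp36, Tnfaip3 and Tnf fall after 1 h in the Tbc1d23 line, Cxcl10 and Acod1 have their highest mean there at 3 h, and Ccl4 starts at 7.74, against 2.57 in the CAT line.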

How the data were processed

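Total RNA from 24 RAW264.7 samples was labelled with Cy3 and hybridised to 1-colour Agilent arrays. Per the file headers, Agilent Feature Extraction 10.7.1.1 gave the authors' spot intensities as background-subtracted, detrended processed signals that were not normalized between arrays. The deposited log2 value table has the same quantiles in every column and served as an alternative; the submitters' processing notes name no version or role for its tools. Coordinates are mm9, per the file headers. The gene names come from the files and RefSeq.

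Here, log2 processed signals minus each array's 75th percentile were tested with limma 3.58.1 in R 4.3.3 (lmFit, eBayes) over 24 arrays, with 8 group means and 6 slides as a fixed block. The brightest of a gene's probes stood for it (5078 genes had several), and 37 genes lacked a value on an array of the contrast. Slide is set by line and replicate number. Deviations from group means of same-slide 1 h and 0 h arrays correlated at 0.520, 0.646 and 0.789 in the Tbc1d23 line and 0.269, 0.563 and 0.379 in the CAT line. The numbers thus pair arrays by slide, and a pairing of the samples themselves cannot be told apart from the shared slide. The scripts were tested on simulated data. Array numbers limit the precision.

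The members and gene lists were chosen with earlier results of these data known. Genes were named by rank of response (15 highest, 10 lowest), by lower bound of the fold, by rank of the difference between lines (8 in each direction) or as members of the inflammatory lists. Marker genes given by name, and genes singled out for equal levels or a larger response, were chosen after their values were seen. Alternatives covered the block, arrays in the fit, scaling, background correction, dim-probe filter, probe choice and single slides left out.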

Additional observations from a re-analysis of the deposited data

Results flagged for a closer look

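For 80 of the genes named, the response at 1 h differed between the lines in the limma test of the difference itself (adjusted p of 0.0466 or less, Benjamini-Hochberg over 15074 genes), given as the Tbc1d23 response minus the CAT response on the log2 scale. The largest differences below 0 were Il1a (-7.69), Ptgs2 (-6.24), Areg (-6.17), Ifnb1 (-5.14), Maff (-4.31), Ccl4 (-4.03), Il1b (-3.98), Ifit1 (-3.97), Il6 (-3.83), Traf1 (-3.82), Ppp1r15a (-3.78), Cxcl10 (-3.75), Csrnp1 (-3.60) and Acod1 (-3.57). Next in size came Gadd45g (-3.48), Phlda1 (-3.45), Isg15 (-3.27), Dusp1 (-3.25), Myc (-3.12), Fosl1 (-3.03), Trib1 (-3.02), Oasl1 (-2.99), Ccl24 (-2.85), Cd79b (-2.74), Cxcl2 (-2.73), Socs1 (-2.69), Fosl2 (-2.63) and Errfi1 (-2.45). Further differences below 0 were Nr4a1 (-2.42), Tlr3 (-2.31), Clec4e (-2.29), Nfkbiz (-2.22), Cd86 (-2.21), Rsad2 (-2.11), Slc7a2 (-2.00), Ccl3 (-1.95), Jun (-1.85), Tnf (-1.84), Mx1 (-1.83), Nr4a2 (-1.77), Pde4b (-1.77) and Zc3h12a (-1.76). Nearer to 0 were Gpr152 (-1.69), Gpr84 (-1.63), Dusp2 (-1.62), Ccl2 (-1.59), Relb (-1.48), Icam1 (-1.46), Btg2 (-1.41), Junb (-1.40), Nfkb2 (-1.30), Egr2 (-1.29), Socs3 (-1.19), Nfkbid (-1.17), Tnfaip3 (-1.11) and Wdr31 (-1.10). The least negative were Nlrp3 (-0.98), Gadd45b (-0.97), Cd14 (-0.91), Tnfsf9 (-0.86), Nfkbia (-0.75) and Klf10 (-0.65). Above 0 stood Atf3 (0.47), Osgin1 (0.54), Egr1 (0.61), Nhlrc1 (0.83), Dusp6 (0.89), Il10ra (0.89), Hilpda (0.98), Mylip (0.98), Zfp273 (1.00), Tmem140 (1.54), Zfp647 (1.62), Zfp763 (1.67), Alkbh4 (1.77) and Zfp30 (1.79). Larger differences above 0 were Zkscan14 (1.84), Csf2 (1.94), Rgs2 (2.65) and Txnip (3.01). A difference below 0 is not always a smaller rise. Gpr152, Wdr31, Klf10, Ccl24, Cd79b, Tlr3, Cd86, Slc7a2 and Mx1 were called lower at 1 h in the Tbc1d23 line. Of those above 0, Osgin1, Nhlrc1, Dusp6, Mylip, Zfp273, Alkbh4, Zkscan14 and Txnip were called lower there and fell less than in the CAT line. Values of Il1a, Ptgs2, Areg, Ifnb1, Il1b, Il6, Ccl24, Cd79b, Cxcl2, Tlr3, Cd86, Slc7a2, Mx1 and Csf2 include a group that was not well above background on any of its 3 arrays and are fitted values, not measured folds. The call of the difference was lost in at least 1 fit with a slide left out for Atf3, Cd79b, Csf2, Dusp6, Egr1, Egr2, Gpr152, Mx1, Nhlrc1, Nlrp3, Osgin1, Slc7a2, Tlr3, Wdr31 and Zfp763. Without the replicate block it was lost for Atf3, Csf2, Dusp6, Egr1, Egr2, Gadd45b, Gpr152, Klf10, Nfkbia, Nlrp3, Osgin1, Slc7a2, Wdr31 and Zc3h12a. After scaling to the array median it was lost for Atf3, Btg2, Cd14, Egr2, Gadd45b, Gpr152, Gpr84, Junb, Klf10, Nfkb2, Nfkbia, Nfkbid, Nlrp3, Nr4a2, Slc7a2, Socs3, Tlr3, Tnfaip3, Tnfsf9 and Wdr31. After quantile normalization it was lost for Atf3, Cd79b, Cd86, Cxcl2, Mx1, Nlrp3, Slc7a2, Tlr3 and Wdr31.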

How the results depend on the processing

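The fit called 679 genes at 1 h against 0 h in the Tbc1d23 line, 2398 in the CAT line and 839 in the difference between the lines. Without the slide (the replicate block) the counts were 247, 1102 and 358. With a random slide effect the counts were 705, 2228 and 907. After quantile normalization the counts were 722, 2962 and 1092. After scaling to the array median the counts were 7766, 956 and 461. In the deposited value table the counts were 722, 2922 and 1078. After normexp the counts were 29, 198 and 38. After normexp refitted on the 6 arrays where it had failed, which was chosen after seeing the data, the counts were 1078, 2373 and 776. Without a filter on dim probes the counts were 3437, 1767 and 796. With probes well above background on all 24 arrays the counts were 388, 2230 and 749. With the mean of a gene's probes the counts were 883, 2513 and 889. With a 2-fold minimum added the counts were 309, 592 and 373. With only 12 arrays of a line in the fit the Tbc1d23 line gave 882 and the CAT line 1709, and with only the 6 arrays at 1 h and 0 h they gave 63 and 752. Leaving out 1 slide at a time gave 283 to 853, 1410 to 3160 and 491 to 934. Of the 90 genes at least 2-fold higher, 85 kept the call without the slide, 89 after quantile normalization and 44 with 6 arrays, where fewer samples enter; of the 463 lower calls 122, 195 and 13 did. Scaling to the array median moved the median response of all genes in the Tbc1d23 line to 0.48, against -0.09, and gave 7546 higher and 220 lower calls, while the deposited values gave 445 and 277. The difference between the lines, with 304 calls above 0 and 535 below, turned to 269 above and 192 below after scaling to the array median, and stood at 508 and 584 after quantile normalization, 489 and 589 in the deposited table and 1 and 37 after normexp. The Tbc1d23 transcript gave 0.50 after scaling to the array median (adjusted p = 0.0396), 0.00795 with the mean of a gene's probes (adjusted p = 0.979) and 0.0862 on the dimmer probe (adjusted p = 0.81) by limma. Responses that changed sign after scaling to the array median were those of Alkbh4 (0.14), Areg (0.22), Blnk (0.49), Ccl3 (0.56), Dntt (0.35), Gadd45g (0.18), Il6 (0.34), Mylip (0.0888), Nfkb1 (0.33), Oscar (0.0116), Tlr4 (0.26), Tmem140 (0.18), Zfp30 (0.11), Zfp647 (0.10), Zfp763 (0.17) and Zkscan14 (0.0901). Responses that changed sign after quantile normalization were those of Areg (0.32), Ccl3 (0.0317), Gata1 (0.10) and Il6 (0.13). Responses that changed sign in the deposited value table were those of Areg (0.32), Ccl3 (0.0338), Gata1 (0.0644) and Il6 (0.18). Responses that changed sign after normexp were those of Areg (0.79), Ccl24 (0.79), Cd14 (-0.70), Cd300ld3 (0.0165), Cd3e (0.40), Cd5 (-0.29), Cd79b (0.80), Cd86 (0.92), Ch25h (0.94), Flt3 (0.66), Gata1 (0.73), Hbb-bt (0.49), Ikzf1 (0.0371), Il6 (1.06), Klf1 (0.52), Mx1 (0.74), Myd88 (-0.70), Nhlrc1 (0.26), Oasl1 (-0.45), Olfr124 (0.23), Oscar (0.23), Rgs2 (-0.82), Slc7a2 (0.61), Socs1 (-0.0184), Tac2 (0.24), Tlr3 (0.70), Wdr31 (0.41), Zfp273 (0.30), Zfp647 (0.44), Zfp658 (0.38) and Zfp763 (0.29). Responses that changed sign after normexp refitted on the 6 arrays where it had failed, which was chosen after seeing the data, were those of Ccl3 (0.0105). Responses that changed sign with the mean of a gene's probes were those of Nfkb1 (0.53) and Rgs2 (-0.00187). With 1 slide left out at a time, responses ran for Areg from -1.06 to 0.63 (sign changed without Tbc1d23 replicate 1), Ccl3 from -0.0365 to 0.0374 (sign changed without Tbc1d23 replicate 1) and Socs1 from -0.12 to 0.25 (sign changed without Tbc1d23 replicate 2 and Tbc1d23 replicate 3). Over all named genes and settings, 1610 responses kept direction and side of the threshold, 266 lost the call, 13 gained it and 62 changed sign. The cause was not tested. Signal over background limits the dim genes, and the number of arrays limits the precision.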
